A study of Mus musculus with 3 samples.

Results

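The cone opsins Opn1sw and Opn1mw are 2 of the 31053 genes in a table of counts per gene and well from single sorted mouse cones. They were taken by gene symbol and described in wells with 500 or more genes counted and no more than 30% of their counts on mitochondrial genes. That left 183 of 208 wells, with 52 of the wildtype plate, 70 of the Cnga3-/- plate and 61 of the Pde6ccpfl1 plate. Retinas of each line were dissociated with papain, stained with a dead-cell dye and sorted by fluorescence for GFP, with 1 plate and therefore 1 library per line. The wildtype line is labelled Chrnb4-GFP, a reporter driven by a nicotinic receptor gene, and the libraries of both mutant lines also carry GFP in their names. Cnga3-/- mice lack a subunit of the cone cyclic nucleotide-gated channel, and Pde6ccpfl1 mice carry a mutation of the cone phosphodiesterase. All 3 groups are labelled postnatal day 12. The well names carry the tags P11 for wildtype, P08 for Cnga3-/- and P10 for Pde6ccpfl1, whose meaning is not stated, so that age, if the tags are ages, plate and genotype cannot be told apart. The number of animals behind a plate is not given in the sources used here. The library method combined elements of SMARTseq2, which reads whole transcripts, and MARS-seq, which reads transcript ends, so levels are given both unscaled and per kilobase of exon where genes are compared.

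Opsins are the light-absorbing receptors of photoreceptors. A photon changes the shape of the bound retinal, the opsin activates the cone transducin, transducin activates the phosphodiesterase, and the fall in cyclic GMP closes the cyclic nucleotide-gated channel. Mouse cones use a short-wavelength opsin, Opn1sw, which absorbs in the ultraviolet, and a middle-wavelength opsin, Opn1mw. Many mouse cones make both in proportions that change from the dorsal to the ventral retina, and the short-wavelength opsin appears first in development. Thyroid hormone receptor beta is needed for the middle-wavelength opsin, and retinoid-related orphan receptors, Crx and other factors act on one or both genes.

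In the GENCODE M21 annotation of GRCm38, Opn1sw lies on chromosome 6 from 29376671 to 29388468 on the minus strand and Opn1mw on chromosome X from 74127464 to 74150760 on the plus strand. The annotated exons of Opn1sw share 397 bases, 15.5% of its exon length, with Calu on the opposite strand, and the deposited counts are not stated to use strand. Calu, a calcium-binding protein of the secretory pathway, had 99 counts in the wildtype library, 60 in the Cnga3-/- library and 54 in the Pde6ccpfl1 library. Whether any Opn1sw counts come from Calu transcripts was not tested. The promoters are shown because factors whose mRNA is described further on are known to act there. Each is the 300 bases from 250 before to 50 after the RefSeq start site, in GRCm38.p6, at chr6:29380464-29380763 (minus strand) and chrX:74127216-74127515 (plus strand). The GENCODE gene of Opn1sw reaches upstream of that start site, to 29388468, so its exon length includes exon sequence of a longer transcript. Whether these cones use that sequence was not tested. If they do not, the Opn1sw levels and ranks per kilobase given below are too low. Capitals mark the matches found to 3 searched motifs on either strand.
Opn1sw: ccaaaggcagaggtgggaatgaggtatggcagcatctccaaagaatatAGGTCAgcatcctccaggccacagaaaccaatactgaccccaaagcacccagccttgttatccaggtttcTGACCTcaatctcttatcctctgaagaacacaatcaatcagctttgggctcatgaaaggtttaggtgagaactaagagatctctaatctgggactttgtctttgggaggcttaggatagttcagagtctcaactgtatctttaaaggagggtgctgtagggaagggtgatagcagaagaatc
Opn1mw: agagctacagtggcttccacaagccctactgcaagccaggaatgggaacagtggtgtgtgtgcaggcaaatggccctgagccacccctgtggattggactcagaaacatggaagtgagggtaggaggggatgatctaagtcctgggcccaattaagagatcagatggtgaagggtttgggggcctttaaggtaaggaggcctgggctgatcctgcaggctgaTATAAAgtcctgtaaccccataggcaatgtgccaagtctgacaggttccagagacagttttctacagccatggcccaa
The nuclear receptor motif AGGTCA, a target of thyroid hormone and retinoid-related receptors, occurred in the Opn1sw window on each strand, at -202 and -132 from the start site, and in 16.3% of 32851 promoters of the same length. The TATA box TATAAA occurred in the Opn1mw window at -28, and in 13.6% of promoters. The Crx and Otx core TAATCC, held by 7.06% of promoters, had no match in either window. A match is a run of letters and not a measured site.

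Kept wells held 273080 to 335499 counts per library, and the median well held 4895 counts on the wildtype plate, 4056.5 on the Cnga3-/- plate and 3796 on the Pde6ccpfl1 plate. The genes mutated in the lines were themselves counted at low levels: Cnga3 had 22, 13 and 3 counts in the wildtype, Cnga3-/- and Pde6ccpfl1 libraries and Pde6c had 0, 5 and 2. Where in the transcript a count falls is not recorded, so these counts do not check the genotype labels. The cone label was checked on 10 cone markers other than the opsins. Their sum was 50 counts for wildtype, 180 for Cnga3-/- and 173 for Pde6ccpfl1. Scaled to the library total as CPM, these are 183, 537 and 586. Gnat2, Gngt2, Pde6c and Cngb3 were at 0 in wildtype. Per kilobase of exon the wildtype markers stood at 4.69 CPM and 1092 olfactory receptor genes at 4.47 CPM. In that library markers of pigment epithelium stood at 14.8, horizontal cells at 10.2, rods at 6.80 and Muller glia at 5.38 CPM per kilobase. Bipolar, amacrine, ganglion, microglial and endothelial markers stood below the cone markers. The cone label of the wildtype library was thus not matched by its markers, and every comparison with it below rests on that library. In Cnga3-/- the cone markers stood at 13.74 CPM per kilobase, beside 13.01 for rods and 9.03 for pigment epithelium. In Pde6ccpfl1 they stood at 15.02, beside 11.23 for rods and 6.39 for pigment epithelium. Cone markers were the highest of these lists in both mutant libraries, but close to rod markers in Cnga3-/-. Whether they exceeded rod markers beyond counting error was not tested. In wildtype, Cnga3-/- and Pde6ccpfl1 the 12 rod markers summed to 111, 261 and 198 counts, or 406, 778 and 671 CPM, and 0 of the 12 were at 0 in any library. Summed counts of 83 cytosolic ribosomal protein genes were 288, 632 and 611. The part of rod RNA, ribosomal content or well quality in the opsin differences was not tested. With 1 library per genotype there is no test between genotypes, wells are not replicates, and all intervals are 95% and cover counting error only.

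Opn1sw was not counted in any kept wildtype well and was among the more abundant mRNAs of both mutant libraries. It had 0 counts in the 52 wildtype wells, 63 counts in 34 of 70 Cnga3-/- wells and 27 counts in 20 of 61 Pde6ccpfl1 wells. The levels were 188 CPM (144 to 240) in Cnga3-/- and 91.5 CPM (60.3 to 133) in Pde6ccpfl1. Wildtype was put at 3 counts in place of 0, the limit used here for what a count of 0 allows. The Cnga3-/- level was then at least 17.1-fold higher and the Pde6ccpfl1 level at least 8.33-fold higher. Both bounds leave out the counting error of the 63 and 27 mutant counts and would be lower with it. Among genes with 10 or more counts over the libraries compared, 3.05% of 7739 exceeded wildtype by 8-fold or more in Cnga3-/-, and 3.09% of 7289 did so in Pde6ccpfl1. There too a wildtype 0 was put at 3 counts, so such genes with few mutant counts could not reach 8-fold. The shares are therefore low by construction and not matched to Opn1sw in counts. Of 574 protein-coding genes with at least 63 counts in Cnga3-/-, 2 had no wildtype count, Opn1sw and the cornified envelope gene Lce3d, which is named after its values were seen. Of 1359 such genes with at least 27 counts in Pde6ccpfl1, 16 (1.18%) had none. Per kilobase of exon, Opn1sw ranked 282 of 21750 protein-coding genes in Cnga3-/- and 665 in Pde6ccpfl1, at 73.4 and 35.8 CPM per kilobase. As a share of wells, 48.6% (36.4 to 60.8) of Cnga3-/- wells, 32.8% (21.3 to 46.0) of Pde6ccpfl1 wells and 0 of 52 wildtype wells had a count. The exact interval of the 0 of 52 wells reaches up to 6.85%, and the limit of 3 used above gives 5.77%. The intervals of both mutants overlapped each other and lay above both values.

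Between the mutant libraries Opn1sw was lower in Pde6ccpfl1, with a log2 ratio of CPM to Cnga3-/- of -1.04 (-1.74 to -0.37), or 2.05-fold lower. Among 7850 genes with at least 10 counts over both, 14.2% were at least 2-fold lower in Pde6ccpfl1. The difference was smaller among wells with at least 1400 counts, each given equal weight. In the 65 Cnga3-/- and 54 Pde6ccpfl1 wells with at least 1400 counts, each reduced to 1400, the mean over all random draws gave a log2 ratio of -0.21, and 1 draw gave 0.59 (-0.60 to 1.82), with the opposite sign. Without wells under 1000 genes the log2 ratio was -1.12, without the 5 deepest wells of each library -0.97, and as the mean of per-well CPM -1.01. The last value also weighs wells equally but keeps those under 1400 counts. Among those was the Cnga3-/- well with 7 Opn1sw counts among 1148.

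Opn1mw was counted in all 3 libraries, at 4 counts on the wildtype plate, 17 on the Cnga3-/- plate and 21 on the Pde6ccpfl1 plate. The levels were 14.6 CPM (3.99 to 37.5), 50.7 CPM (29.5 to 81.1) and 71.2 CPM (44.1 to 109) in the same order. The interval of wildtype overlapped that of Cnga3-/- and not that of Pde6ccpfl1, and the intervals of both mutants overlapped. The log2 ratio to wildtype was 1.79 (0.17 to 3.82) in Cnga3-/- and 2.28 (0.71 to 4.28) in Pde6ccpfl1, where 16.1% and 15.5% of genes were at least 2-fold higher. The Cnga3-/- interval took in 0 under several settings, with lower ends of -0.27 without wells under 1000 genes, -0.32 without the 5 deepest wells, -0.04 in shared well positions and -0.02 without the richest well. Scaled to ribosomal protein genes, both intervals took in 0, with lower ends of -0.66 and -0.26. A ratio of 2-fold or more was thus common among all genes, which limits what the Opn1mw ratios show. The log2 ratio of Pde6ccpfl1 to Cnga3-/- was 0.49 (-0.50 to 1.50). Opn1mw was counted in 4 of 52 wildtype wells (7.69%, 2.14 to 18.5), 14 of 70 Cnga3-/- wells (20.0%, 11.4 to 31.3) and 15 of 61 Pde6ccpfl1 wells (24.6%, 14.5 to 37.3).

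No sorted cell type that should lack opsins was in the design, so the shares of wells were set beside those of olfactory receptor genes, which serve smell. The 95th percentile over these genes was 13.5%, 10.0% and 11.5% of wells for wildtype, Cnga3-/- and Pde6ccpfl1, whose median wells held 4895, 4056.5 and 3796 counts. The wildtype share of Opn1mw lies below that value, with an interval that spans it, so by that value it is not told apart from background. The median olfactory receptor gene, the comparison first planned, was counted in 0%, 1.43% and 0% of wells. The wildtype Opn1mw share lies above that median. The wildtype Opn1mw level of 9.38 CPM per kilobase was above the 4.47 CPM per kilobase of the pooled olfactory receptor genes, on 4 counts. Both opsins lay above the 95th percentile in both mutant libraries. With each well reduced to 1400 counts, which left 48, 65 and 54 wells, the mean share over all draws was 0%, 21.2% and 16.7% for Opn1sw and 1.77%, 8.67% and 10.1% for Opn1mw. A single draw gave 0%, 18.5% and 22.2% for Opn1sw and 0%, 10.8% and 9.26% for Opn1mw, so the order of the mutants differed between the draw and the mean for both opsins. The 4 wildtype wells with Opn1mw had 1 count each, held 4891 to 9288 counts in all, and in 2 of them another cone marker was counted.

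**Figure D1:**
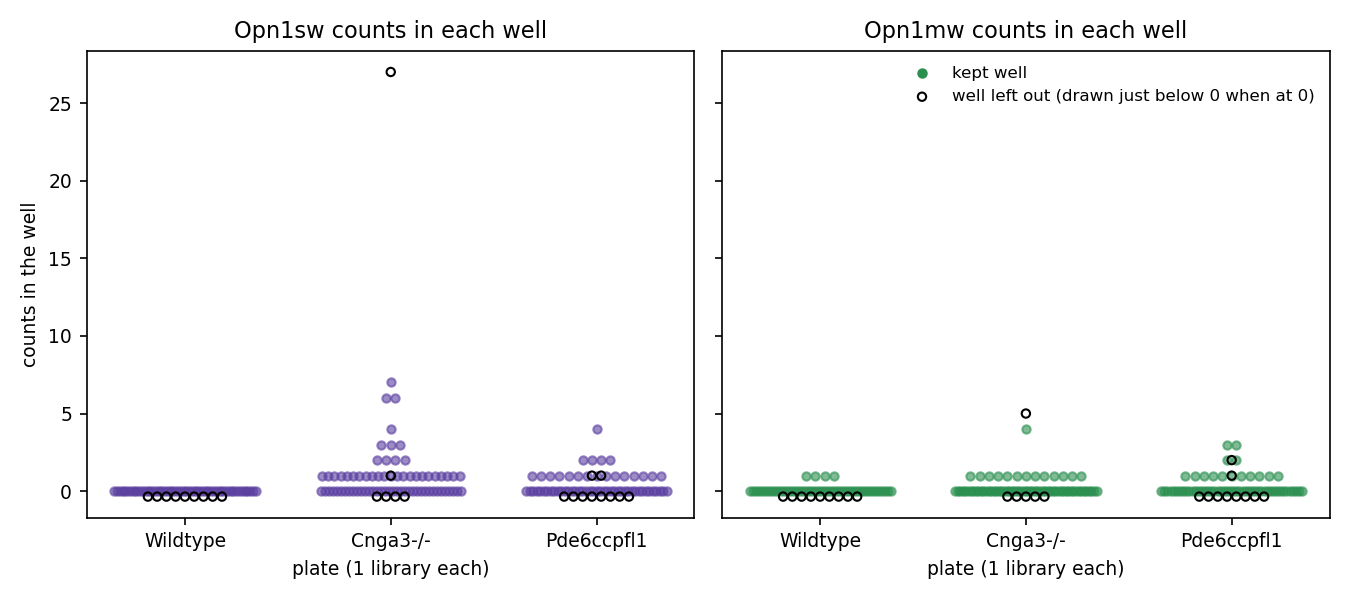
Counts of Opn1sw (left) and Opn1mw (right) in each well of the 3 plates; filled points are kept wells and open circles are wells left out for holding under 500 genes. All 52 wildtype wells sit at 0 for Opn1sw, kept mutant wells reach 7, and 1 left-out Cnga3-/- well holds 27.

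Most positive wells held a single opsin count. Of the 34 Cnga3-/- wells with Opn1sw, 23 had 1 count, 4 had 2, 3 had 3, 1 had 4, 2 had 6 and 1 had 7. Of the 20 such Pde6ccpfl1 wells, 15 had 1 count, 4 had 2 and 1 had 4. The 5 wells with the most Opn1sw held 41.3% of its counts in Cnga3-/- and 44.4% in Pde6ccpfl1, so neither sum came from a single well. Opn1mw was sparser in Cnga3-/-, where 13 of 14 wells had 1 count and 1 well had 4. In Pde6ccpfl1 11 of 15 wells had 1 count of Opn1mw, 2 had 2 and 2 had 3. Within positive wells the Opn1sw level ran from 59.0 to 6098 CPM around a median of 331 in Cnga3-/- and from 67.6 to 2489 around 266 in Pde6ccpfl1. For Opn1mw the ranges were 116 to 808 around 261 in Cnga3-/- and 71.5 to 2146 around 218 in Pde6ccpfl1. The well with 2489 CPM of Opn1sw held 4 among 1607 counts, and the well with 2146 CPM of Opn1mw held 3 among 1398, so high levels per well rested on few counts.

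Opsin levels were not carried by the deepest wells. Cnga3-/- wells were divided at the median depth into 35 deeper wells, with 39 Opn1sw counts (157 CPM), and 35 shallower wells, with 24 (276 CPM). The 30 deeper Pde6ccpfl1 wells had 16 counts (70.6 CPM) and the 31 shallower ones 11 (161 CPM). Opn1mw stood at 36.2 CPM in the deeper and 92.0 CPM in the shallower Cnga3-/- wells, and at 52.9 and 132 CPM in those of Pde6ccpfl1. All 4 levels were thus higher in the shallower wells. The share of wells with Opn1sw was higher among the deeper wells, at 57.1% (39.4 to 73.7) against 40.0% (23.9 to 57.9) in Cnga3-/- and 40.0% (22.7 to 59.4) against 25.8% (11.9 to 44.6) in Pde6ccpfl1, with overlapping intervals. The kept well with the highest level was a shallow Cnga3-/- well with 7 Opn1sw counts among 1148, which is 6098 CPM.

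**Figure D2:**
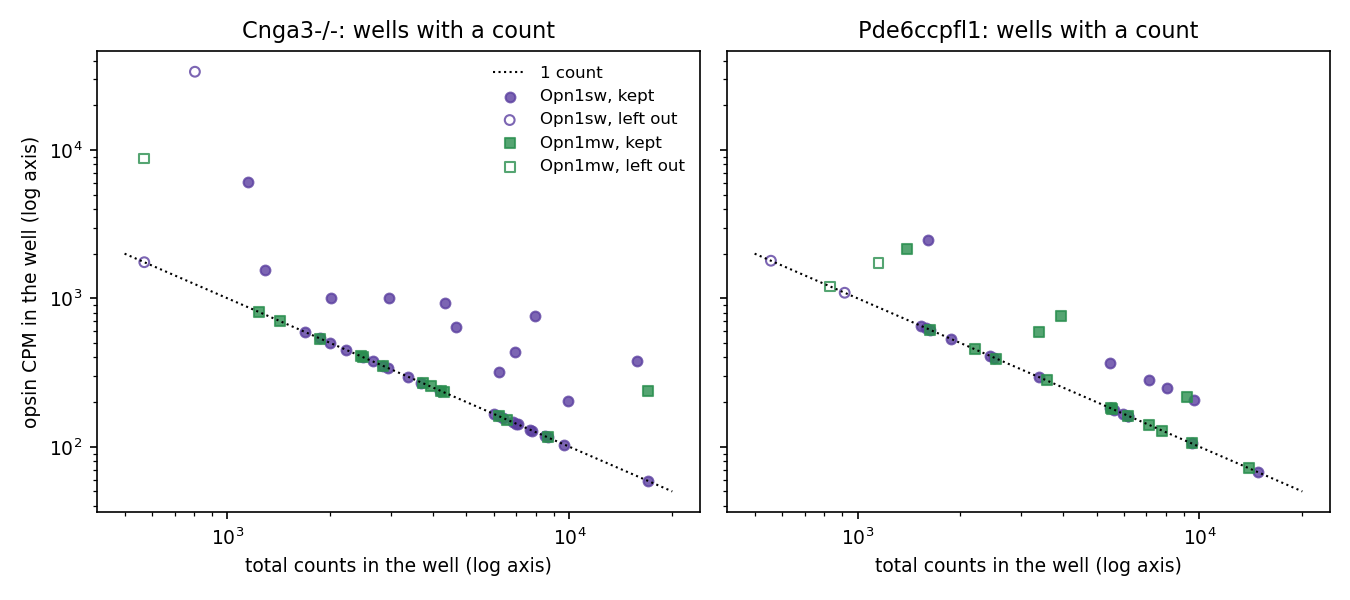
Opsin CPM in each mutant well with a count against the total counts of the well, both on log axes, with the dotted line at 1 count. Most points lie on the line of 1 count, and the wells furthest above it include shallow ones, such as the kept Cnga3-/- well at 6098 CPM.

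Few wells had a count of both opsins, beside low shares of wells with each. Opn1sw was counted in 48.6% of Cnga3-/- wells and 32.8% of Pde6ccpfl1 wells, and Opn1mw in 20.0% and 24.6%. Whether the overlap was below what these shares alone would give was not tested. In Cnga3-/- 29 wells had Opn1sw only, 9 had Opn1mw only, 5 had both and 27 had neither. In Pde6ccpfl1 the numbers were 16, 11, 4 and 30. Wells with both made up 7.14% (2.36 to 15.9) in Cnga3-/- and 6.56% (1.82 to 15.9) in Pde6ccpfl1, and 0 of 52 in wildtype. In no well did both opsins reach 2 counts. The Cnga3-/- well with 4 Opn1mw counts, the most of any kept well, had 1 Opn1sw count and was also the deepest of its plate, with 16935 counts. Any opsin was counted in 61.4% (49.0 to 72.8) of Cnga3-/- wells and 50.8% (37.7 to 63.9) of Pde6ccpfl1 wells.

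**Figure D3:**
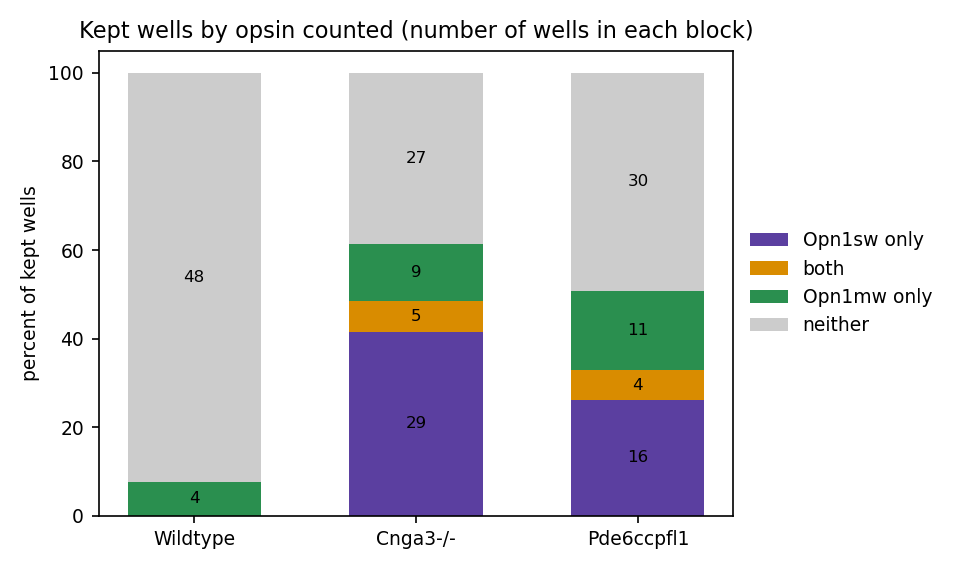
Percent of kept wells of each plate in which Opn1sw only, both opsins, Opn1mw only or neither was counted, with the number of wells in each block. Wells with both number 5 in Cnga3-/- and 4 in Pde6ccpfl1.

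Each opsin was counted in a smaller share of the wells that held the other opsin than of the wells that lacked it. In Cnga3-/- Opn1mw was counted in 14.7% (4.95 to 31.1) of the 34 wells with Opn1sw and in 25% (12.1 to 42.2) of the 36 wells without it. Conversely Opn1sw was counted in 35.7% (12.8 to 64.9) of the 14 wells with Opn1mw and in 51.8% (38.0 to 65.3) of the 56 without. In Pde6ccpfl1 Opn1mw was counted in 20.0% (5.73 to 43.7) of 20 wells with Opn1sw and 26.8% (14.2 to 42.9) of 41 without. Opn1sw was counted there in 26.7% (7.79 to 55.1) of 15 wells with Opn1mw and 34.8% (21.4 to 50.2) of 46 without. In all 4 contrasts, which are 2 tables of wells each read both ways, the intervals overlapped. The Opn1sw wells were the deeper ones, with medians of 5338.5 against 3882 counts in Cnga3-/- and 5500.5 against 3611 in Pde6ccpfl1. The phi coefficient of the opsins over wells was -0.13 in Cnga3-/- and -0.07 in Pde6ccpfl1. With mostly 1 count per positive well, cones that hold 1 opsin mRNA and cones that hold both cannot be told apart here.

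The balance of the opsins was shifted to Opn1sw in the Cnga3-/- library, by an amount that depended on the wells used. Opn1sw made up 78.8% of opsin counts in Cnga3-/- and 56.3% in Pde6ccpfl1. The Cnga3-/- library had 3.71 (2.14 to 6.76) Opn1sw counts per Opn1mw count and the Pde6ccpfl1 library 1.29 (0.70 to 2.39). The ratio of these ratios was 2.86 (1.22 to 6.79), an interval of counts and not of animals. Per kilobase of exon, where Opn1sw has 2557 bases and Opn1mw 1562, the Cnga3-/- ratio was 2.26 (1.31 to 4.13) and the Pde6ccpfl1 ratio 0.785 (0.428 to 1.46). The 2557 bases include exon sequence upstream of the RefSeq start site, so both ratios may be too low. In the wells reduced to 1400 counts, the log2 ratios of Opn1sw to Opn1mw were 1.52 and 0.96 as means over all draws, against 1.89 (1.10 to 2.76) and 0.36 (-0.51 to 1.26) in all kept wells. The 1 draw put them in the opposite order, at 0.78 and 1.58. Both the draw and the means leave out wells under 1400 counts. Among those were a Cnga3-/- well with 7 Opn1sw counts and a Pde6ccpfl1 well with 3 Opn1mw counts.

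The proteins that act with the opsins were described from a list of 22 cone phototransduction and retinoid cycle genes. Between Cnga3-/- and wildtype 15 members had 10 or more counts, of which 6 were higher by 2-fold or more and 1 lower, beside 16.1% and 15.1% of all genes. In Pde6ccpfl1 7 of 15 were higher and 1 lower, beside 15.5% and 17% of all genes. The median log2 ratio of the members was 0.13 and 0.70, beside -0.13 and -0.11 for all genes. A member that reached 10 counts through the mutant library alone had to be higher, so these counts are a description. Gnat2, the cone transducin alpha subunit, had 0, 20 and 20 counts in the wildtype, Cnga3-/- and Pde6ccpfl1 libraries. Gngt2, its gamma subunit, had 0, 22 and 43 counts, and Gnb3, its beta subunit, 1, 30 and 16. Like Opn1sw, these 3 transducin genes were at or near 0 in wildtype. Pde6h, an inhibitory phosphodiesterase subunit, had 16, 56 and 43 counts, and Guca1a, which activates guanylate cyclase when calcium falls, 1, 15 and 18. Cnga3, the channel subunit, was lower in both mutants, with 22, 13 and 3 counts.

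The partners did not all follow the Opn1sw difference between the mutants. Gngt2 was 2.22-fold higher in Pde6ccpfl1 than in Cnga3-/-, with a log2 ratio of 1.15 (0.38 to 1.96), while Opn1sw was lower. Arr3, the cone arrestin that ends opsin signalling, had 3, 5 and 27 counts in the same order, a log2 ratio between the mutants of 2.62 (1.22 to 4.35). Rgs9, which speeds transducin shut-off, had 0, 28 and 3 counts. Grk1, the kinase that phosphorylates light-activated opsins, had 39, 39 and 31 counts and lay within 2-fold throughout. Abca4 and Rdh12, which handle retinal released from opsins, had 493, 359 and 541 counts and 104, 64 and 133 counts. Over the list, 3 of 16 members were at least 2-fold higher in Pde6ccpfl1 than in Cnga3-/- and 2 lower, beside 10.1% and 14.2% of all genes.

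**Figure D4:**
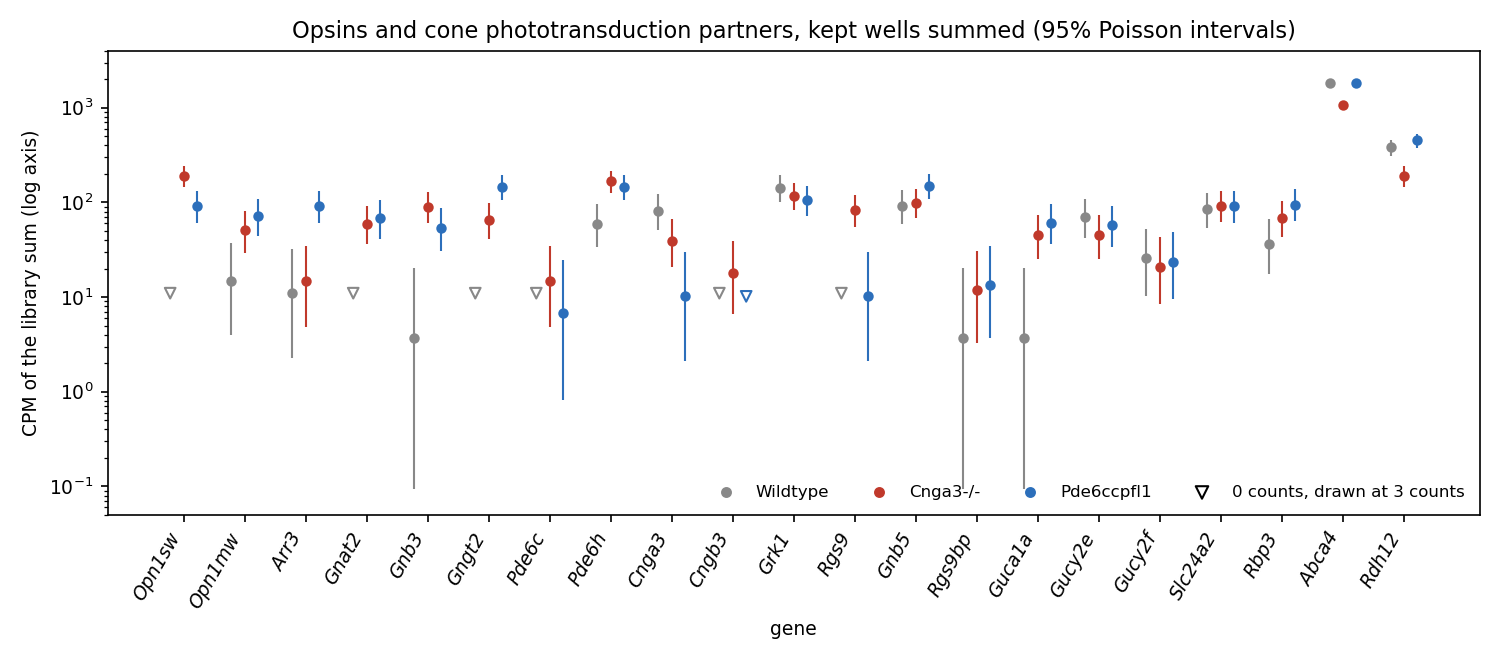
CPM of the 2 opsins and of the phototransduction partners with at least 5 counts, summed over kept wells of each library, on a log axis with 95% Poisson intervals; open triangles stand for 0 counts and are drawn at 3 counts. Opn1sw, Gnat2 and Gngt2 have wildtype triangles and mutant points at 59.6 to 188 CPM, whereas Abca4 is at or above 1070 CPM in every library.

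Transducin genes were counted both in mutant wells with Opn1sw and in those without, and their shares are given as a description. Gnb3 was counted in 37.0% of the 54 wells with Opn1sw and 16.9% of the 77 without, Gnat2 in 29.6% and 14.3%, and Gngt2 in 42.6% and 28.6%. Scaled to the counts of those wells, Gnb3 stood at 107 and 42.1 CPM and Gnat2 at 83.9 and 45.1 CPM, whereas Gngt2 stood at 104 and 102 CPM. Arr3 was counted in 11.1% and 18.2% of the same wells and Pde6h in 46.3% and 39.0%. Wells with Opn1sw had a median of 5500.5 counts and those without 3739, so depth moved in the same direction as the transducin shares. For the 29 wells with Opn1mw the shares were 27.6% for Gnb3, 24.1% for Gnat2 and 37.9% for Gngt2, beside 24.5%, 19.6% and 33.3% of the 102 without. Of the wells with neither opsin, 17 of 27 in Cnga3-/- and 26 of 30 in Pde6ccpfl1 still had a count of another cone marker. Summed over the 10 other cone markers, Cnga3-/- wells stood at 698 CPM with Opn1sw only, 572 with Opn1mw only, 539 with both and 307 with neither. The Pde6ccpfl1 wells stood at 470, 599, 718 and 647 CPM, so wells with neither opsin were lowest on one mutant plate and not on the other.

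Among 21 regulators of opsin genes, 12 had 10 or more counts over Cnga3-/- and wildtype, of which 5 were higher by 2-fold or more and 1 lower, beside 16.1% and 15.1% of all genes. In Pde6ccpfl1 7 of 13 were higher and 0 lower, beside 15.5% and 17%. The median log2 ratios were 0.62 and 1.36, beside -0.13 and -0.11 for all genes. Here too a member could reach 10 counts through the mutant library alone, so the counts are a description. Crx, a homeobox factor of photoreceptors, had 0, 17 and 14 counts. With wildtype put at 3 counts its mutant levels were at least 4.61-fold and at least 4.32-fold higher, leaving out the counting error of the mutant counts. Thrb, the thyroid hormone receptor gene, had 6, 23 and 19 counts, with log2 ratios to wildtype of 1.64 (0.30 to 3.23) and 1.55 (0.17 to 3.16). Rora, a retinoid-related orphan receptor gene, had 60, 440 and 566 counts and was counted in 92.9% and 95.1% of mutant wells, so its presence does not divide wells by opsin. Rorb, its relative, had 9, 16 and 25 counts. Samd7, a photoreceptor gene silencing factor, had 10, 63 and 33 counts, and Nrl, which directs rod fate, had 11, 6 and 9. Between the mutants the median was -0.09, with 2 of 15 higher and 1 lower beside 10.1% and 14.2% of all genes, and the log2 ratio of Thrb was -0.09 (-1.05 to 0.85). Rxrg, a retinoid receptor partner of the thyroid hormone receptor, had 2 wildtype counts and 0 in both mutants. Dio2, which makes active thyroid hormone, had 0, 0 and 10 counts.

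Thrb was counted in 34.5% of the 29 mutant wells with Opn1mw and in 20.6% of the 102 without. In wells with Opn1sw the share was 22.2%, beside 24.7% without. Crx was counted in 27.6% and 15.7% of wells with and without Opn1mw, and in 16.7% and 19.5% of wells with and without Opn1sw. With 10 wells holding both Thrb and Opn1mw and 8 holding both Crx and Opn1mw, these shares are descriptions.

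Opn4, Rgr and Rrh, opsins or opsin-like proteins of other retinal cells, had 2 to 7 counts per library, and Opn3 and Opn5 had 0 in each.

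The genes whose wells were most like those with Opn1sw, by the phi coefficient over 131 mutant wells among 5829 genes with a count in at least 10 of them, were Hivep2 (0.33), Uhrf1bp1l (0.32), Serinc2 (0.31), Ube2f (0.31) and Zdhhc9 (0.30). For Opn1mw they were Prpf19 (0.31), Eya3 (0.31), Agk (0.31), Csrnp3 (0.30) and Mysm1 (0.30). None is a cone phototransduction gene. Gnb3 ranked 99 for Opn1sw at 0.23 and Gnat2 321 at 0.19, while the other opsin ranked 5648 for Opn1sw and 5413 for Opn1mw, at -0.11. The points share 2 libraries and their depth, and coefficients this weak in sparse counts are no finding.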

How the data were processed

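The authors deposited 1 table of unnormalized read counts, with genes in rows and wells in columns. Per the submitters' processing notes it was made with featureCounts (version not given in the sources used here) and the build GRCh38, which is human. The gene names are mouse symbols, 98.1% of them in GENCODE M21 (GRCm38), so that annotation was used for positions and exon lengths. The aligner, strand setting and handling of molecular identifiers are not given in the sources used here, so counts may not be independent molecules. Wells were matched to libraries by the library name in their column. Counts of kept wells were summed and scaled to CPM. Ratios have exact intervals conditional on the summed count, CPM exact Poisson intervals and shares exact Clopper-Pearson intervals. A library at 0 counts was set to 3 counts. Background shares used genes with at least 10 counts over 2 libraries. Wells were also reduced to 1400 counts. No doublet caller was run, and no 2 wells had identical counts. No cell barcodes were used, and 43 well positions were kept in all 3 plates. The ratio code was checked on simulated counts. Named genes were both opsins, the 5 genes with the highest phi coefficient for each, and 3 lists. The members and lists were chosen with earlier results of these data known. Other well filters, scalings, depths and definitions of a positive well were tried. Tools were Python 3.11.15, scipy 1.17.1 and edgeR 4.0.16, the last for TMM factors. Some genes of the lists are not reported here.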

Additional observations from a re-analysis of the deposited data

Results flagged for a closer look

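The wells left out for too few genes held Opn1sw counts that the comparisons do not use. The 6 left-out Cnga3-/- wells had 28 Opn1sw counts among 4749, or 5896 CPM (3918 to 8521), against 0 among 7174 in the 9 left-out wildtype wells, where 3 counts would be 418 CPM. Of the 28 counts, 27 came from 1 well with 803 counts and 318 genes, in which Opn1sw made up 3.36% of counts (2.23 to 4.86) and ranked 2 among its genes. That well had 0 counts of the 10 other cone markers and 0 of Opn1mw. Another left-out Cnga3-/- well, with 571 counts, had 5 Opn1mw counts and 1 Opn1sw count. The 10 left-out Pde6ccpfl1 wells had 2 Opn1sw and 3 Opn1mw counts.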

How the results depend on the processing

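Of 157 values recomputed for 17 results under 17 settings, 125 kept within the tolerance set around the reported value, which is its counting interval or, for the bounds, that of the mutant count, 31 did not, and 1 turned the sign of a difference of 2-fold or more. Values on the log2 scale follow, for Opn1sw in Cnga3-/- over wildtype (4.10 as reported), Pde6ccpfl1 over wildtype (3.06) and Pde6ccpfl1 over Cnga3-/- (-1.04). The first was 4.64 with no well filter and 4.65 as the mean of per-well CPM, where the second was 3.64. Scaled to ribosomal protein genes, they were 3.26 and 2.08. With wells reduced to 1400 counts, 1 draw gave 1.56, 2.15 and 0.59, the last reversed, and the mean over all draws, chosen after seeing the data, gave 2.00, 1.79 and -0.21. The first pair are bounds that shrink with fewer counts by construction. For the last, the mean over draws weighs wells equally and leaves out those under 1400 counts. With those wells kept, equal weighting gave -1.01, and its other settings gave -1.48 to -0.76. Opn1mw in Pde6ccpfl1 over wildtype (2.28) had the bound 0.57 in the draw, and Pde6ccpfl1 over Cnga3-/- (0.49) was -0.22 there, of opposite sign. In the draw, the log2 ratio of Opn1sw to Opn1mw was 0.78 in Cnga3-/- and 1.58 in Pde6ccpfl1. Per kilobase it was 1.18 and -0.35, the latter of opposite sign to the unscaled 0.36. These values depend on an Opn1sw exon length that includes sequence upstream of the RefSeq start site.

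Shares of wells depended on depth. The draw, the demand for 2 counts and the mean over draws gave 0, 0 and 1.77% for Opn1mw in wildtype. In Cnga3-/- they gave 18.5, 15.7 and 21.2% for Opn1sw, 10.8, 1.43 and 8.67% for Opn1mw, and 1.54, 0 and 1.07% for both. In Pde6ccpfl1 they gave 22.2, 8.20 and 16.7% for Opn1sw, so the draw alone put it above Cnga3-/-. Opn1mw had 9.26, 6.56 and 10.1%, and both opsins 0 at 2 counts. Scaling to ribosomal protein genes shifted every gene's log2 ratio to wildtype by -0.84 in Cnga3-/- and -0.97 in Pde6ccpfl1. TMM factors shifted every gene's log2 ratio to wildtype by 0.08 and 0.10, and median-of-ratios factors by 0.14 and 0.09. With a Pearson correlation of log2 CPM in place of phi, Hivep2 was again first for Opn1sw and Prpf19 for Opn1mw. The other leading genes for Opn1sw all changed, to Slc38a3, Fam227b, Aipl1 and Cdkn1b. For Opn1mw, Tgfa took the place of Eya3 among the first 5. No paired analysis was possible because each genotype has 1 library, and none could be left out. At these depths a gene with no count in a library may stand at several CPM.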
